A study of Mus musculus with 56 samples.

Results

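The endoplasmic reticulum (ER) chaperones and the genes of the unfolded protein response were followed through the day in mouse kidney. The 35 genes were listed by name for what their products do and not picked by their measured values, although earlier results of these data were known. All 35 were found among the 17027 genes of the kidney table and passed the filter on low values. They are 6 Hsp70 and Hsp90 family chaperones and their partners, 4 ER J proteins, 6 disulfide and proline isomerases, 2 lectin chaperones, 2 secreted stress proteins, 4 sensors and factors of the response, 9 genes of ER-associated degradation (ERAD) and 2 genes of protein entry into the ER. Sdf2l1 was known from earlier results of these data to lose its 24-h rhythm when meals are moved, and the question here was which of the others do.

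The samples were 56 kidney libraries from female C57BL/6J mice of 9 weeks. All mice had free access to food for 7 days in a cycle of 12 h of light and 12 h of dark, then either nighttime-restricted feeding (NRF, the control) or daytime-restricted feeding (DRF, inverted meals) for 7 days. Each of the 2 regimens had 4 libraries at each of 7 times, zeitgeber time (ZT, hours from lights on) 0, 4, 8, 12, 16, 20 and 24, which made 14 groups, and both regimens had the same light. Food hours within the day or night are not given in the labels, and neither is the animal behind each replicate number, so p-values measure the spread between these libraries.

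The ER folds the proteins that a cell secretes or puts into its membranes. Hspa5 (BiP) is its central Hsp70, and J proteins, nucleotide exchange factors, disulfide isomerases and the lectins calreticulin and calnexin work beside it. When unfolded proteins build up, the sensors IRE1, PERK and ATF6 raise the transcription of these helpers and of ERAD, which returns misfolded proteins to the cytosol for degradation, and the factors XBP1 and ATF6 act through ER stress elements in the promoters.

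Levels are given as TPM (transcript level per gene length, scaled to the same total in every library), computed from reads recovered from the deposited values over 16719 genes with recovered reads. These reads totalled 21.86 to 24.49 M per library, and the mean per gene ranged from 66.4 reads for Derl3 to 23112 for Calr, so relative counting error was largest for Derl3. Replicate libraries correlated across genes with a median r of 0.988 and a lowest of 0.968. The defining tubule genes Slc34a1, Umod and Aqp2 were detected in every library. Adipose markers stood apart: their summed level ran from 9.74 to 4757 TPM under NRF and from 17.8 to 1091 TPM under DRF, and 8 libraries exceeded 500 TPM, 2 of them at NRF ZT16 and 1 each at NRF ZT0, ZT4, ZT12 and ZT20 and DRF ZT12 and ZT20. Counts of genes called rhythmic were repeated without these 8 libraries. No such repeat is given for counts taken from ranges of single libraries or from the times of highest and lowest mean. All tissue is bulk, so fewer cells of a type and less RNA per cell cannot be told apart.

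Under NRF most of the genes were highest in the night, when the mice were fed, but not all. Edem2 was lowest at ZT16 and Dnajc10 at ZT20. A 24-h cosine was called in 32 of 35 genes under NRF with limma at a Benjamini-Hochberg adjusted p under 0.05, against 52.5% of the 13580 genes tested. The fitted peak lay at ZT16 or later in 28 of the 32, a count not made over all genes. Earlier peaks were those of Dnajb9 (13.7 h), Herpud1 (12.3 h), Dnajc10 (8.66 h) and Edem2 (6.35 h). The group mean was highest at ZT16 in 20 genes and at ZT20 in 9, against 19% and 11.1% of all genes tested, and lowest at ZT12 in 21 genes, against 16.3%. The median amplitude, the height of the cosine above its mean on the log2(TPM + 1) scale, was 0.27 for the 35 genes and 0.13 for all genes tested.

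Under DRF the same test called 3 of 35 genes, against 36.8% of all genes tested, and the 3 were the ERAD genes Herpud1, Edem2 and Selenos. The median amplitude was 0.10 for the 35 genes and 0.11 for all genes. The 24-h rhythm differed between regimens in 28 of 35 genes, tested as the interaction of regimen with the cosine, against 46.5% of all genes. Of these, 25 were called under NRF, not called under DRF and had the interaction, against 18.5% of all genes. In the 25 the DRF amplitude was 0.123 to 0.555 times the NRF amplitude, with a median of 0.334. The interaction takes amplitude and timing together, so it does not by itself show a fall in amplitude. The amplitude difference ranged from clear, as in Pdia6 (-0.56 ± 0.09), to near its SE, as in Ppib (-0.06 ± 0.04). In Sec61b the fitted peaks also lay 10.3 ± 1.3 h apart. Leaving out Sdf2l1, whose loss of rhythm was known when the question was set, 24 of the other 34 genes were called under NRF only with an interaction. Counting every gene, the amplitude was lower under DRF in 31 of 35, against 59.7% of all genes. The call held in 14 genes under every alternative setting that tested them: Sdf2l1, Hspa5, Hsp90b1, Dnajb11, Dnajc3, Pdia3, Pdia6, P4hb, Calr, Canx, Manf, Xbp1, Edem1 and Derl3.

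Of the 25 genes called under NRF only with an interaction, 22 still varied over clock time under DRF. Over all genes tested, 1588 of the 2512 genes called in this way did so. Both criteria together were met by 62.9% of the 35 genes, against 11.7% of all genes tested. Sdf2, Hspa13 and Dnajc10 did not pass the test of variation over clock time. The 35 genes varied over clock time under DRF in 30 cases, against 58.2% of all genes tested, and under NRF in 32, against 55.7%. A 12-h component beside the 24-h cosine was called in 28 of 35 genes under DRF, against 30.8% of all genes, and in 26 genes under every alternative setting that tested them. The fitted 12-h component of these 28 peaked between 3.53 and 4.71 h and again between 15.5 and 16.7 h. Under DRF the 12-h amplitude exceeded the 24-h amplitude in 29 genes, and under NRF in 1, a count not made over all genes. Over all genes tested the median 12-h and 24-h amplitudes were also closer under DRF (0.09 and 0.11) than under NRF (0.06 and 0.13). For the 35 genes these medians were 0.21 and 0.10 under DRF and 0.11 and 0.27 under NRF. A called 12-h component does not by itself show a pair of maxima: the mean of Herpud1, 1 of the 28, was higher at each sampled time from ZT0 to ZT16 than at the time before it, with no maximum at ZT4. The group mean under DRF was highest at ZT4 in 23 genes, against 17% of all genes, and at ZT16 in 9, against 13.2%, and was lowest at ZT0 in 20, against 12%.

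**Figure D1:**
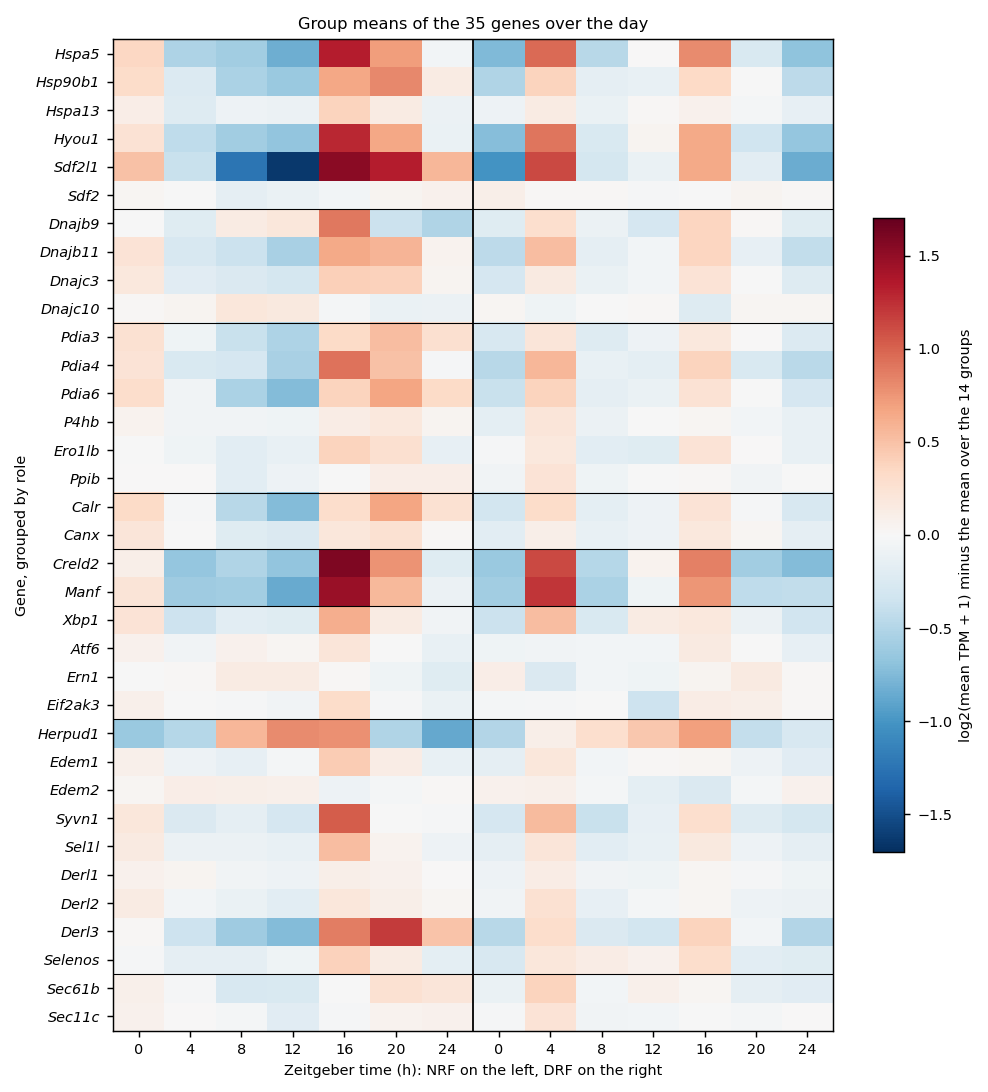
Group means of the 35 genes, with zeitgeber time in h across the columns, NRF in the left 7 columns and DRF in the right 7. Colour is log2(mean TPM + 1) minus the gene's mean over the 14 groups, and lines divide the roles. Most rows are red at ZT16 and ZT20 under NRF and at both ZT4 and ZT16 under DRF.

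In the ranges of single libraries a pair of maxima was seen in fewer genes. All DRF ZT4 libraries were above all DRF libraries of ZT0, ZT24 and ZT8 in 18 of 35 genes, against 3.57% of all genes tested. All DRF ZT16 libraries were above those of DRF ZT12 and ZT20 in 15 genes, against 1.78%. Both held in 10 genes, against 0.324%: Hspa5, Hyou1, Sdf2l1, Dnajb11, Dnajc3, Pdia4, Pdia6, Creld2, Manf and Syvn1. Under NRF no gene of the 35 had its ZT4 libraries above those of ZT0, ZT24 and ZT8, against 0.479% of all genes. That share is so low that finding none among 35 genes does not set the regimens apart. All NRF ZT16 libraries were above all NRF ZT12 libraries in 24 genes, against 8.34% of all genes.

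The 12-h component was also compared between regimens. It was called under NRF in 9 genes, against 0.81% of all genes, and the test of its difference between regimens called 5 genes, against 5.79%. The 5 were Creld2, P4hb, Dnajb11, Manf and Hspa5, each with the larger 12-h amplitude under DRF. At an unadjusted p under 0.05 the difference held in 16 genes, against 20.7% of all genes. Without replicate 1 and without replicate 4 of every group it was called in 1 gene each, and with libraries rescaled by the median of ratios in 10. The NRF count rested on few libraries: it was 2 without replicate 2, 0 without replicate 3, 3 without replicate 4, 4 without the ZT24 libraries and 3 without the 8 libraries high in adipose markers, and in the last of these settings the DRF count was again 28. The DRF 24-h count also depended on the fit: with the 12-h terms kept in the model it was 7, adding Hyou1, Pdia4, Creld2 and Sec61b, and 23 genes were then called under NRF only with an interaction. Without replicate 4 it was 5.

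**Figure D2:**
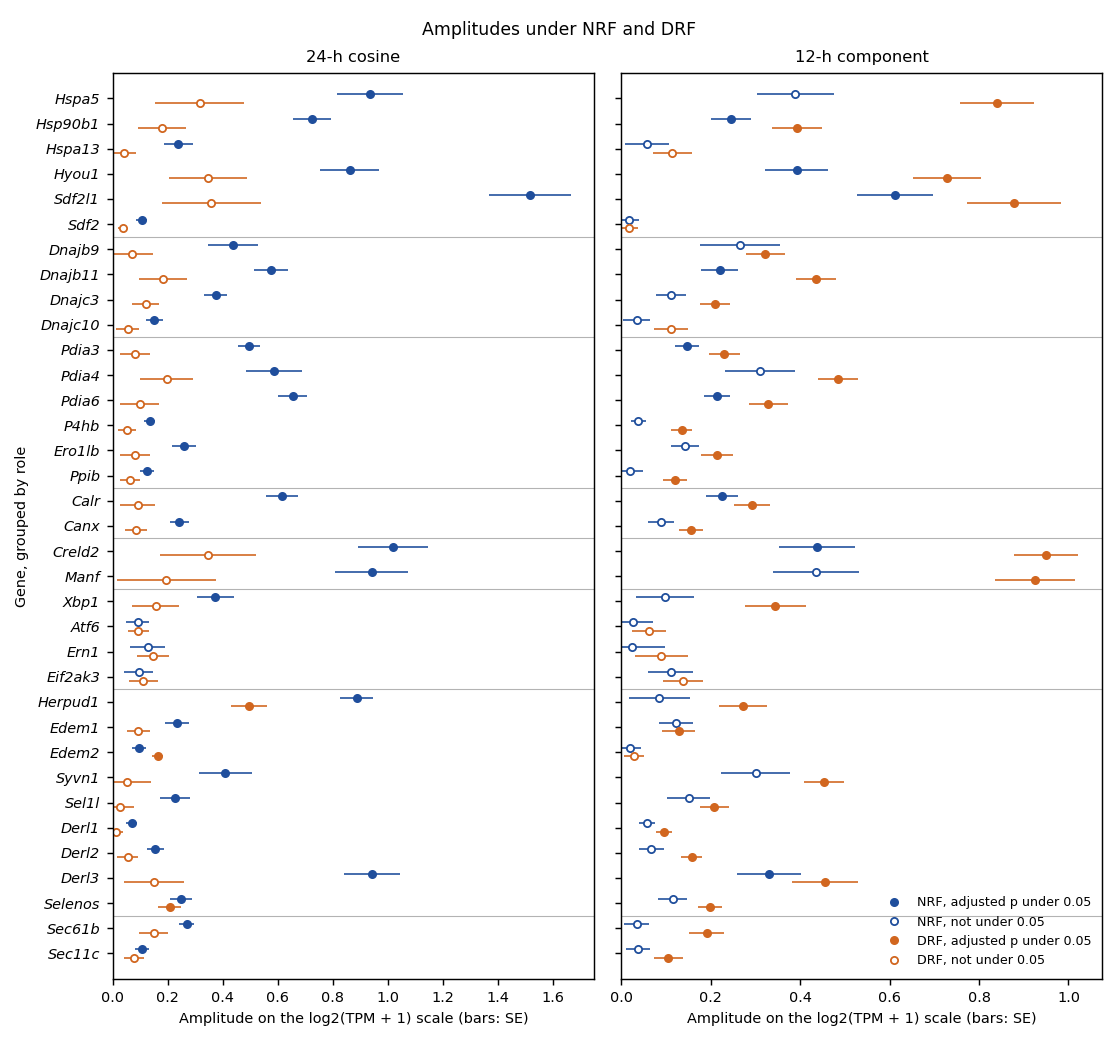
Amplitudes of the 24-h cosine (left) and of the 12-h component (right) on the log2(TPM + 1) scale for each gene, NRF in blue and DRF in orange, with bars of 1 SE. Filled points have an adjusted p under 0.05. On the left 32 NRF points and 3 DRF points are filled, and on the right 9 and 28.

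Sdf2l1, a partner of ER J proteins in the BiP cycle (chromosome 16, 17130138 to 17132383, minus strand, GRCm38), had the largest NRF amplitude of the 35. Under NRF its 4 libraries read 51.5, 51.7, 55.4 and 69.2 TPM at ZT0, then 24.8, 27.6, 33.7 and 35.8 at ZT4, and 12.2, 14.9, 15.6 and 22.3 at ZT8. They read 11.0, 11.2, 11.5 and 14.8 TPM at ZT12, then 105, 111, 119.9 and 135 at ZT16, 89.7, 96.1, 106 and 118 at ZT20, and 57.6, 57.7, 58.4 and 64.6 at ZT24. Between ZT12 and ZT16 the ranges did not overlap, and the mean rose 9.70-fold. Under DRF the libraries read 15.5, 17.2, 21.3 and 22.8 TPM at ZT0, then 50.7, 87.8, 87.9 and 125 at ZT4, and 24.97, 27.5, 34.2 and 42.3 at ZT8. They read 28.01, 32.5, 33.7 and 53.4 TPM at ZT12, then 55.4, 62.9, 63.8 and 70.0 at ZT16, 25.3, 34.1, 38.7 and 42.6 at ZT20, and 18.5, 20.3, 20.5 and 28.2 at ZT24. The ZT4 and ZT16 libraries of DRF overlapped each other and lay above those of ZT0, ZT8, ZT20 and ZT24. The 24-h amplitude was 1.52 ± 0.15 (SE) under NRF and 0.36 ± 0.18 under DRF. The 12-h amplitude was 0.61 ± 0.08 under NRF and 0.88 ± 0.10 under DRF. The 12-h component was called under both regimens, and the test of its difference did not pass (adjusted p 0.309). The mean over clock time differed by -0.0017 ± 0.075 on the log2 scale. These values of Sdf2l1 are given as a description, since its loss of rhythm set the question.

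Sdf2, the paralogue of Sdf2l1 (chromosome 11, 78245746 to 78255496), hardly moved. The lowest, median and highest of its 28 libraries were 86.5, 105 and 119 TPM under NRF and 97.9, 109 and 121 TPM under DRF, with its NRF ZT8 libraries, 86.5 to 99.9 TPM, all below those of NRF ZT0, 104 to 116 TPM. Its NRF amplitude of 0.11 ± 0.02 was called, its DRF amplitude of 0.04 ± 0.02 was not, and the interaction had an adjusted p of 0.0402. It had no 12-h component under DRF (amplitude 0.02 ± 0.02, adjusted p 0.733) and did not vary over clock time there (adjusted p 0.435). Its mean over clock time was one of 3 that differed between regimens, with DRF above NRF by a log2 difference of 0.06 ± 0.02 (adjusted p 0.0238).

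All 6 genes of the Hsp70 and Hsp90 role, Sdf2l1 and Sdf2 included, were called under NRF only with an interaction, and 4 had a 12-h component under DRF. Hspa5 (BiP, chromosome 2, 34771970 to 34777547) averaged 280 ± 32.8 TPM at NRF ZT12 and 1262 ± 167 at NRF ZT16 (SD, n = 4), and under DRF 297 ± 63.8 at ZT0, 974 ± 223 at ZT4, 360 ± 37.0 at ZT8 and 871 ± 101 at ZT16. Hsp90b1 (GRP94, chromosome 10, 86690209 to 86705509), the Hsp90 of the ER, ran from 345 over a median of 698 to 1190.2 TPM under NRF and from 382 over 602 to 974 TPM under DRF. At NRF ZT12 its libraries read 345, 392, 447 and 477 TPM and at NRF ZT20 1068, 1081, 1179.7 and 1190.2 TPM, which is 2.72-fold between the means with no overlap. Under DRF the ZT0 libraries read 382, 429, 450.0 and 547 TPM, the ZT4 libraries 631, 837, 929 and 933 TPM and the ZT16 libraries 731, 738, 811 and 974 TPM. Hyou1, a nucleotide exchange factor for BiP, had an amplitude of 0.86 ± 0.11 under NRF and 0.35 ± 0.14 under DRF. Hspa13 had the smallest response here besides Sdf2, with an amplitude of 0.24 ± 0.05 under NRF and 0.04 ± 0.04 under DRF and no 12-h call (adjusted p 0.117), and it did not pass the test of variation over clock time under DRF (adjusted p 0.165).

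**Figure D3:**
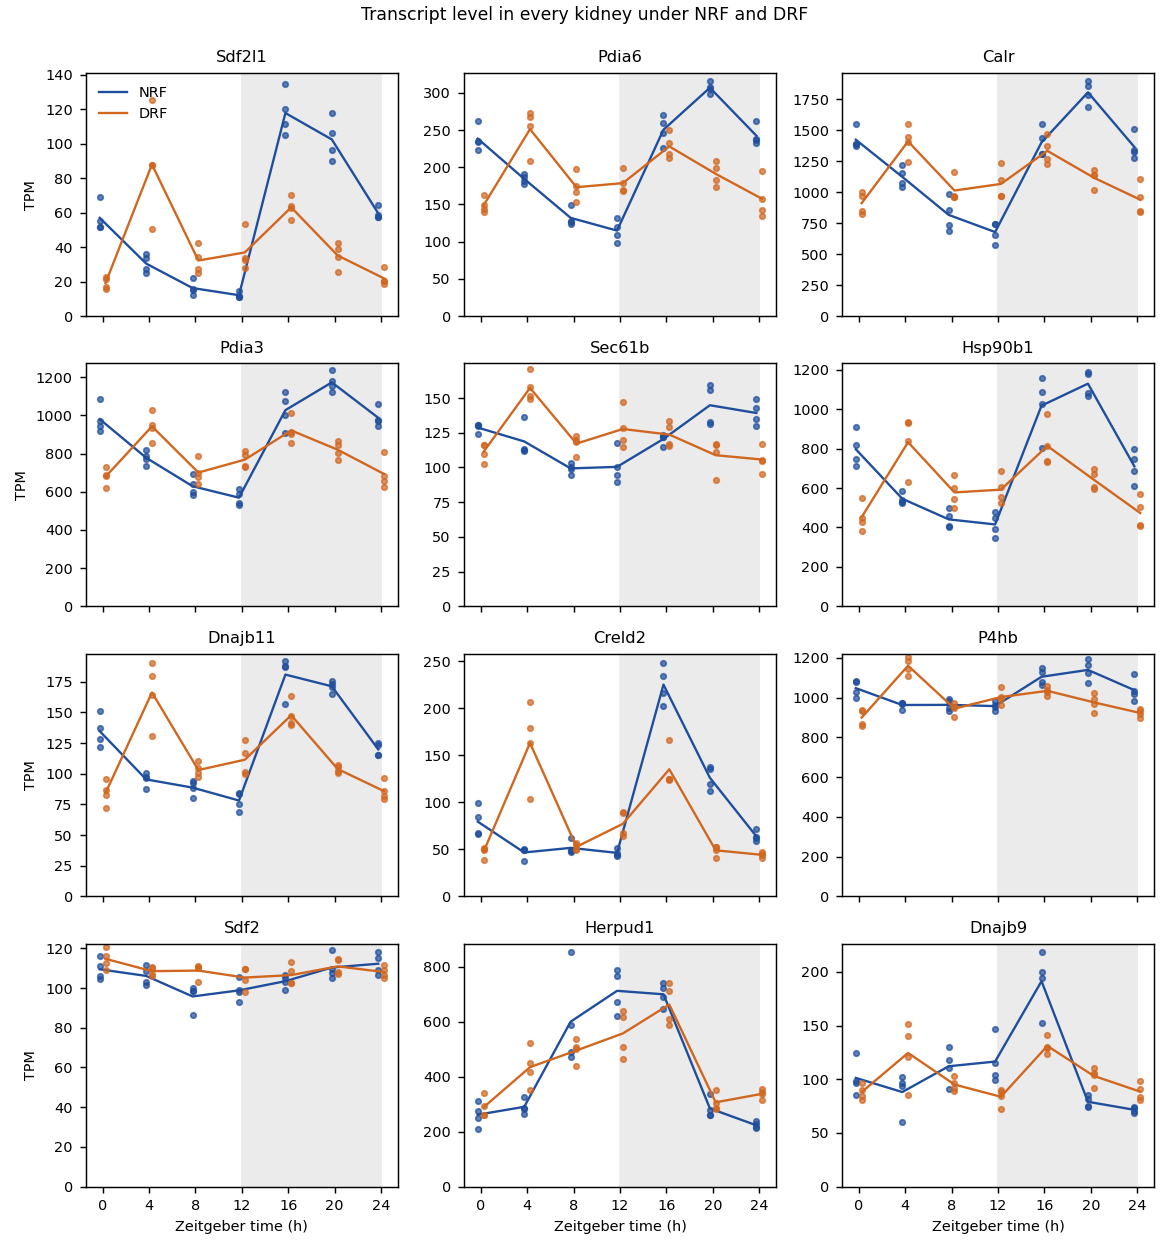
TPM of 12 genes against zeitgeber time in h, 1 point per library and a line through the means, NRF in blue and DRF in orange, with the dark phase shaded. Sdf2l1, Pdia6, Calr, Pdia3, Hsp90b1, Dnajb11, Creld2 and, more weakly, Sec61b and P4hb rise in the dark under NRF and at ZT4 under DRF, while Sdf2 stays near 107 TPM and Herpud1 is high from ZT8 to ZT16 under both regimens.

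The J proteins, which hand clients to BiP, were all called under NRF only with an interaction. Dnajb11 (chromosome 16, 22857845 to 22879634) read 69.1, 75.3, 83.7 and 84.4 TPM at NRF ZT12 and 157, 187, 188 and 192 TPM at NRF ZT16. In DRF kidneys it read 72.2, 82.4, 86.7 and 95.8 TPM at ZT0, 130.4, 164, 179 and 191 TPM at ZT4 and 139.7, 141, 147 and 163 TPM at ZT16. The DRF ZT4 and ZT16 ranges overlapped and both stood clear of ZT0. Over all 28 libraries per regimen the lowest, median and highest were 69.1, 119 and 192 TPM under NRF and 72.2, 103 and 191 TPM under DRF. Its 12-h amplitude was 0.22 under NRF and 0.44 ± 0.05 under DRF, with an adjusted p of 0.0121 for the difference. Dnajc3 had an amplitude of 0.37 ± 0.04 under NRF and 0.12 ± 0.05 under DRF. Dnajb9, a repressor of IRE1 signalling, had its NRF peak at 13.7 ± 0.86 h, and its mean was 191 TPM at ZT16 and 79.0 TPM at ZT20. Dnajc10, a J protein with disulfide reductase activity, had its NRF peak at 8.66 ± 0.76 h, and its 12-h component missed the threshold (adjusted p 0.0683).

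Among the disulfide and proline isomerases, 5 of 6 were called under NRF only with an interaction and all 6 had a 12-h component under DRF. Pdia6 (chromosome 12, 17266545 to 17284770) had the smallest interaction p of the 35. It read 98.6, 109, 120.3 and 132 TPM at NRF ZT12 and 299, 305, 308 and 315 TPM at NRF ZT20. Under DRF it read 139, 144, 149 and 163 TPM at ZT0, 209, 256, 267 and 273 TPM at ZT4 and 212, 217, 232 and 250.02 TPM at ZT16, so ZT4 and ZT16 overlapped and lay above ZT0. The whole ranges were 98.6 to 315 TPM (median 229) under NRF and 135 to 273 TPM (median 181) under DRF. The amplitude was 0.65 ± 0.05 under NRF and 0.10 ± 0.07 under DRF, with an interaction adjusted p of 4.89e-08.

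Pdia3 (ERp57, chromosome 2, 121413775 to 121438687), the isomerase that works with the lectin chaperones, read 532, 542, 586 and 615 TPM at NRF ZT12 and 1121, 1152, 1181 and 1237 TPM at NRF ZT20. Under DRF it read 619.7, 681, 685 and 728 TPM at ZT0, 856, 935, 952 and 1026 TPM at ZT4 and 856, 900.2, 915 and 1012 TPM at ZT16. The DRF values of ZT4 and ZT16 were alike in range and above ZT0. Its whole ranges were 532 to 1237 TPM (median 932) under NRF and 619.7 to 1026 TPM (median 789.6) under DRF, with amplitudes of 0.50 ± 0.04 and 0.08 ± 0.05. P4hb, the most studied isomerase (chromosome 11, 120560298 to 120573253), moved far less in size. It read 931, 950.3, 965 and 983 TPM at NRF ZT12 and 1075, 1125, 1165 and 1192 TPM at NRF ZT20, and under DRF 859, 869, 932 and 937 TPM at ZT0 and 1108, 1144, 1185 and 1205 TPM at ZT4. The ranges of DRF ZT4 and NRF ZT20 overlapped, while its DRF ZT16 libraries read 1010.1, 1028, 1038 and 1061 TPM. Over all times it ran from 930.4 over a median of 1007 to 1192 TPM under NRF and from 859 over 970.2 to 1205 TPM under DRF. Its 12-h amplitude was 0.04 under NRF and 0.13 ± 0.02 under DRF, with an adjusted p of 0.0113 for the difference. Pdia4 fell in amplitude from 0.58 ± 0.10 to 0.20 ± 0.10. Ero1lb (Ero1b in current annotation), which reoxidises the isomerases, did not pass the interaction test (adjusted p 0.0623), and Ppib, a proline isomerase, had a small amplitude of 0.12 ± 0.03 under NRF and 0.06 ± 0.04 under DRF. The reads of Ppib were estimated counts with fractions, so they include reads shared with other genes.

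Calr (calreticulin, chromosome 8, 84841850 to 84846934) was the most abundant gene of the 35. It read 577, 653, 741 and 745 TPM at NRF ZT12 and 1687, 1787, 1856 and 1894 TPM at NRF ZT20, which is 2.66-fold between the means. Under DRF it read 824, 851, 968 and 1005 TPM at ZT0, 1243, 1404, 1442 and 1551 TPM at ZT4 and 1225, 1268, 1374 and 1469 TPM at ZT16. Both DRF maxima stayed below every NRF ZT20 library and above every DRF ZT0 library. The whole ranges were 577 to 1894 TPM (median 1311) under NRF and 824 to 1551 TPM (median 1101) under DRF, and the amplitude was 0.61 ± 0.06 under NRF and 0.09 ± 0.06 under DRF, with an interaction adjusted p of 1.00e-07. Canx (calnexin), its membrane-bound counterpart, had an amplitude of 0.24 ± 0.03 under NRF and 0.08 ± 0.04 under DRF.

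Both secreted stress proteins were high at ZT4 and at ZT16 under DRF. Creld2 (chromosome 15, 88819646 to 88826683) read 42.7, 44.4, 46.4 and 51.5 TPM at NRF ZT12 and 202, 216, 234 and 248 TPM at NRF ZT16. Under DRF it read 38.5, 49.7, 49.9 and 51.9 TPM at ZT0, 104, 163, 179 and 206 TPM at ZT4, 49.3, 50.1, 54.1 and 57.2 TPM at ZT8 and 124, 125, 125 and 167 TPM at ZT16. The ZT4 and ZT16 libraries of DRF overlapped each other, and none of them came near the values of ZT0 or ZT8. Its whole ranges were 37.7 to 248 TPM (median 62.4) under NRF and 38.5 to 206 TPM (median 53.5) under DRF. The 12-h amplitude was 0.44 under NRF and 0.95 ± 0.07 under DRF, and their difference had the smallest 12-h interaction p of the 35 (adjusted p 0.0018). Manf, a secreted ER protein with protective effects on stressed cells, averaged 36.6 ± 5.30 TPM at NRF ZT12 and 187 ± 14.9 at NRF ZT16, and under DRF 44.2 ± 9.80 at ZT0, 157 ± 45.5 at ZT4, 45.8 ± 2.79 at ZT8 and 114 ± 10.4 at ZT16 (SD, n = 4).

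Of the sensors and factors Xbp1, Atf6, Ern1 (IRE1) and Eif2ak3 (PERK), 1 was called under NRF. This was Xbp1, the factor that IRE1 activates by splicing, with an amplitude of 0.37 ± 0.07 under NRF and 0.16 ± 0.08 under DRF and a 12-h component under DRF (0.34 ± 0.07, adjusted p 0.00134). The table gives 1 value per gene, so spliced Xbp1 was not measured. Atf6 had amplitudes of 0.09 ± 0.04 under both regimens, and Ern1, at a mean of 5.75 TPM, had 0.13 ± 0.06 under NRF and 0.15 ± 0.06 under DRF. Eif2ak3 had 0.10 ± 0.05 and 0.11 ± 0.05, with a 12-h component that missed the threshold (adjusted p 0.06), though it varied over clock time under DRF (adjusted p 0.00897).

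ERAD genes split. All 9 were called under NRF, 4 of them under NRF only with an interaction (Edem1, Syvn1, Derl2 and Derl3), and 8 of 9 had a 12-h component under DRF. Derl3, a derlin of the retrotranslocation channel, had the largest amplitude of these 4, 0.94 ± 0.10 under NRF and 0.15 ± 0.11 under DRF, at a mean level of 4.87 TPM. Syvn1 (HRD1), the ubiquitin ligase of ERAD, had 0.41 ± 0.10 and 0.05 ± 0.09, and its partner Sel1l had 0.23 ± 0.06 and 0.03 ± 0.05 with an interaction adjusted p of 0.0694.

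Herpud1 (chromosome 8, 94386438 to 94395377), an ERAD adaptor of the ER membrane, was called under both regimens. Under NRF it read 208, 249.8, 276 and 312 TPM at ZT0 and 620.5, 672, 767 and 789 TPM at ZT12. In the DRF libraries it read 259, 262, 292 and 341 TPM at ZT0, 464, 508, 616 and 640.2 TPM at ZT12 and 588, 611, 711 and 739 TPM at ZT16. The peak was at 12.3 ± 0.29 h under NRF and 11.8 ± 0.57 h under DRF, while the amplitude was 0.89 ± 0.06 and 0.50 ± 0.07, and the interaction had an adjusted p of 0.00117. Edem2, which trims mannose from misfolded glycoproteins, was also called under both, with a DRF amplitude of 0.16 ± 0.02 against 0.09 ± 0.03 under NRF. Selenos, a selenoprotein of the retrotranslocation complex, was called under both, with the peak at 17.01 ± 0.54 h under NRF and 11.0 ± 0.87 h under DRF.

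Of the genes of protein entry, Sec61b, a subunit of the translocon (chromosome 4, 47474658 to 47483242), read 89.7, 94.5, 100.2 and 117 TPM at NRF ZT12 and 131, 133, 156 and 159.7 TPM at NRF ZT20. The DRF libraries read 103, 109.9, 116 and 116 TPM at ZT0, 149, 151, 158 and 171 TPM at ZT4 and 115, 117, 129 and 134 TPM at ZT16. Its single clear DRF maximum was at ZT4, and its ZT16 range overlapped those of ZT0 and ZT12. The whole ranges were 89.7 to 159.7 TPM (median 123) under NRF and 91.0 to 171 TPM (median 117) under DRF, and the interaction had an adjusted p of 8.21e-07. Its DRF amplitude of 0.15 ± 0.05 just missed the threshold (adjusted p 0.0658). Sec11c, a signal peptidase subunit, had 0.11 ± 0.03 under NRF and 0.08 ± 0.04 under DRF.

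To see whether the change follows the clock or the meals, regimens were compared at the same clock time and with NRF taken 12 h later, as if meals were 12 h apart. At the same clock time the 35 genes gave 111 calls of 210 (52.9%), against 21.6% over all genes, and with NRF taken 12 h later 94 of 210 (44.8%), against 18.1%. These comparisons share libraries and are not independent.

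At clock time ZT4, 27 genes were higher under DRF, against 9.84% of all genes, and the lowest, Ern1 at -0.23 ± 0.17, did not pass (adjusted p 0.321), while 20.8% of all genes were lower. There the median difference was 0.33 on the log2 scale against -0.07 over all genes. Manf rose most, by 1.78 ± 0.17 (adjusted p 3.06e-11), and all its DRF libraries were above all NRF libraries. At ZT12, 15 genes were higher and 3 lower under DRF, against 7.97% and 13.7%, with Sdf2l1 first at 1.496 ± 0.192 and Dnajb9 last at -0.46 ± 0.14. At ZT8, 7 genes were higher and 1 lower, against 7.5% and 10.1%, and Sdf2l1 again led with 0.95 ± 0.19.

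At ZT0 (ZT0 and ZT24 averaged), 23 genes were lower and 1 higher under DRF, against 18.2% and 14.4%. Sdf2l1 differed most, by -1.47 ± 0.14, and the higher gene was Herpud1 (0.37 ± 0.09). At ZT20, 20 genes were lower and 1 higher, against 8.17% and 11.1%, with Sdf2l1 at -1.53 ± 0.19 and Dnajb9 at 0.38 ± 0.14. At ZT16, 13 genes were lower, against 5.74%, led by Sdf2l1 with -0.89 ± 0.19, and the highest, Sdf2 at 0.04 ± 0.05, did not pass (adjusted p 0.654), while 2.43% of all genes were higher. For Pdia6 and Calr the difference at ZT16 was -0.13 ± 0.09 and -0.07 ± 0.10, and their libraries overlapped, but their NRF means were highest at ZT20, where every NRF library lay above every DRF ZT16 library.

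With NRF taken 12 h later, DRF at ZT4 was lower than NRF at ZT16 in 10 genes and higher in 4, against 7.99% and 9.35% of all genes. For Pdia6 this difference was -0.00 ± 0.09 and for Calr 0.01 ± 0.10, with overlapping libraries, while Herpud1 was lowest at -0.70 ± 0.13 and Sec61b highest at 0.38 ± 0.08. At DRF ZT8 against NRF ZT20, 23 genes were lower and 1 higher, against 7.49% and 7.97%, with Sdf2l1 at -1.66 ± 0.19 and Herpud1 at 0.80 ± 0.13. At DRF ZT16 against NRF ZT4, in the unfed phase of both regimens, 23 genes were higher and 2 lower, against 7.59% and 25%. Creld2 led with 1.51 ± 0.14 (adjusted p 2.15e-11), and Edem2 fell by 0.36 ± 0.06 on the log2 scale. At DRF ZT0 against NRF ZT12, 6 were higher and 2 lower, against 5.93% and 5.58%, with Sdf2l1 at 0.70 ± 0.17 and Herpud1 at -1.19 ± 0.11. At DRF ZT12 against NRF ZT0, 2 were higher and 11 lower, against 5.1% and 13%, with Herpud1 at 1.20 ± 0.11 and Sdf2l1 at -0.68 ± 0.17. At DRF ZT20 against NRF ZT8, 9 were higher and 1 lower, against 5.84% and 7.5%, with Sdf2l1 at 1.07 ± 0.19 and Herpud1 at -0.93 ± 0.13.

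**Figure D4:**
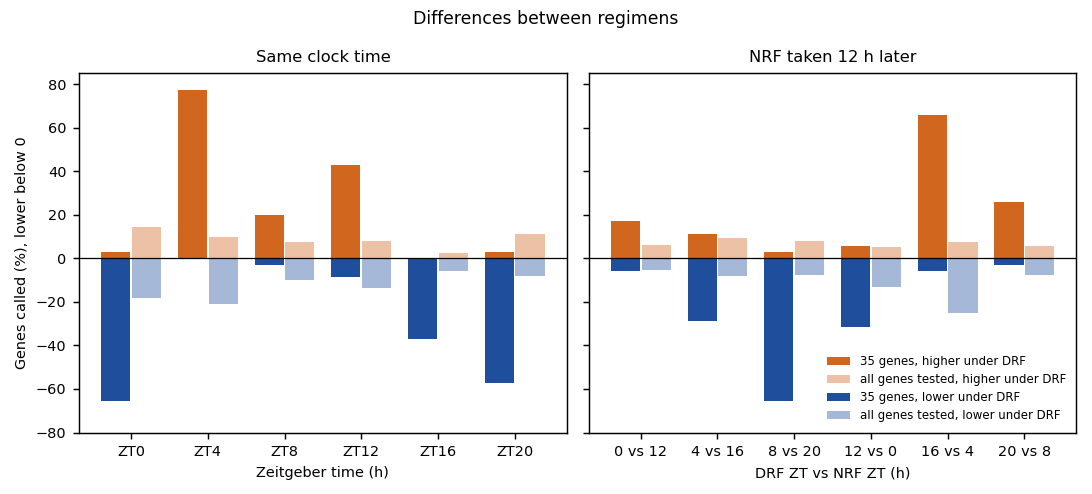
Percent of genes called higher (above 0) or lower (below 0) under DRF at the same clock time (left) and with NRF taken 12 h later (right), for the 35 genes in full colour and for all genes tested in pale colour. The tallest bar stands for the 27 of 35 genes higher at clock time ZT4, and with NRF taken later the longest bars stand for 23 genes higher at DRF ZT16 and 23 lower at DRF ZT8.

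The mean over clock time differed in 3 of 35 genes, against 12.5% of all genes tested, with Sdf2 higher (3.08% of all genes were) and Edem2 and Syvn1 lower (9.39% were) under DRF. The differences were -0.09 ± 0.02 for Edem2 and -0.11 ± 0.03 for Syvn1. Rescaled by the median of ratios, Sdf2 remained higher and no gene was lower. ZT24 and ZT0, the same clock time on consecutive days, differed in none of the 35 genes under either regimen with limma or with limma voom, against 0.714% of all genes under NRF (0.28% higher and 0.434% lower at ZT24) and none under DRF, and at an unadjusted p under 0.05 in 11 genes under NRF and 0 under DRF, against 8.14% and 4.27% of all genes.

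The promoters of the 35 genes were read for the letters of the ER stress element, in the 250 bases before each start (RefSeq, GRCm38.p6). The element was taken as CCAAT, any 9 bases, then CCACG on either strand. Of the 35 genes, 29 had a promoter in the table, and Hspa13, Hyou1, Manf, Atf6, Derl1 and Sec11c had none. The element was found in 10 of 29, against 0.13% of all 27025 genes with a promoter. The 35 genes were listed for a response that acts through this element. A high share was therefore built into the listing and is no result of these data. The 10 were Hspa5, Hsp90b1, Dnajc3, Pdia6, Calr, Canx, Creld2, Syvn1, Derl3 and Ero1lb. The CCACG letters alone stood in 20 of 29, against 31.0% of all genes with a promoter, and CCAAT, which overlaps the element, in 23 of 29, against 37.5%. TGACGTGG stood in none, against 0.603%. Of the 10 genes with the element, 9 were called under NRF only with an interaction, compared with 13 of the 19 without it, and all 10 had a 12-h component under DRF, compared with 14 of 19. The median NRF amplitude was 0.63 with and 0.23 without the element. A match in letters is a description and not a bound site.

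The 4 promoters that hold the element and have the smallest interaction p are shown as the 250 bases before the start, on the strand of the gene, with the element in capitals. In Pdia6 it begins 98 bases before the start, in Calr 162, in Hsp90b1 212 and again 107, and in Derl3 156, and in Calr, Derl3 and the second copy of Hsp90b1 it reads on the opposite strand. They lie at chr12:17266339-17266588 (plus strand), chr8:84846932-84847181 (minus), chr10:86705445-86705694 (minus) and chr10:75893148-75893397 (plus).
Pdia6: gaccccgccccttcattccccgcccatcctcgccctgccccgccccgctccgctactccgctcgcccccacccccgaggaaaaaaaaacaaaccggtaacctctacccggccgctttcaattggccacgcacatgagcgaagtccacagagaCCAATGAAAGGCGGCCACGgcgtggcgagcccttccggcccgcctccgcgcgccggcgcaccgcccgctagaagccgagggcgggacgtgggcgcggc
Calr: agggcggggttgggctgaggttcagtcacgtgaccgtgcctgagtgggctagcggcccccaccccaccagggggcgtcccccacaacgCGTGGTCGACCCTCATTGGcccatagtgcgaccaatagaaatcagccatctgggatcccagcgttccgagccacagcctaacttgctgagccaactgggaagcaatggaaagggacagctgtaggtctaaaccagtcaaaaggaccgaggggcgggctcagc
Hsp90b1: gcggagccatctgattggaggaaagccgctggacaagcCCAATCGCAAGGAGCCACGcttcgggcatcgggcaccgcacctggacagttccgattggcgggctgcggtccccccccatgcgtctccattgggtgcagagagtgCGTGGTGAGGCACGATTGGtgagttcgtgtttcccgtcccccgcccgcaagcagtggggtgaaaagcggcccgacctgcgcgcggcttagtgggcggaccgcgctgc
Derl3: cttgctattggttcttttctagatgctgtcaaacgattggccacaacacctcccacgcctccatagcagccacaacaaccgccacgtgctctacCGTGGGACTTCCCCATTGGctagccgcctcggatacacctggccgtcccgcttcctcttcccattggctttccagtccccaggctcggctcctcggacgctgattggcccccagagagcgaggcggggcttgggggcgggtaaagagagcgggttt

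Sdf2l1 has no full element. Its 250 bases, chr16:17132384-17132633 (minus strand), are shown for comparison, chosen after its values were seen, with each CCACG or CCAAT of either strand in capitals, 6 in all.
Sdf2l1: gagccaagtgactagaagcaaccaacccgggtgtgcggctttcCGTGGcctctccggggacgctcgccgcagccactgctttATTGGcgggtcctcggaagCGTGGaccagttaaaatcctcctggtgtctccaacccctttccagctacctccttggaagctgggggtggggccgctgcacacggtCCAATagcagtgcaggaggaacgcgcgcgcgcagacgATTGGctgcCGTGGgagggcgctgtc

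Other genes of the same machinery were counted from lists beside the 35. Over all genes tested, 52.5% were called under NRF, 36.8% under DRF and 18.5% under NRF only with an interaction. A 12-h component under DRF was called in 30.8%. Of 25 other ER folding genes, 18 were called under NRF and 9 under DRF, 6 under NRF only with an interaction, and 11 had a 12-h component under DRF, led in interaction by Erp44 (amplitude 0.29 under NRF, 0.13 under DRF) and Pdia5 (0.45 and 0.16). Of 17 other translocation and signal peptidase genes tested, 10 were called under NRF, 3 under DRF and 8 under NRF only with an interaction. A 12-h component under DRF was called in 9, and Ssr2 (0.19 and 0.07) and Srpr (0.09 and 0.07) came first in interaction. Of 9 oligosaccharyltransferase genes, which attach N-glycans, 7 were called under NRF, 1 under DRF and 5 under NRF only with an interaction. A 12-h component under DRF was called in 7, with Rpn1 (0.24 and 0.07) and Ostc (0.39 and 0.15) first in interaction. Of 20 other ERAD genes, 8 were called under NRF, 5 under DRF and 4 under NRF only with an interaction. A 12-h component under DRF was called in 7, with Erlec1 (0.15 and 0.09) and Vcp (0.09 and 0.09) first in interaction. Of 14 other factors of the response, 7 were called under NRF, 4 under DRF and 5 under NRF only with an interaction. A 12-h component under DRF was called in 5, with Atf6b (0.27 and 0.08) and Creb3 (0.12 and 0.09) first in interaction. Of the genes named first in interaction, Erp44, Srpr, Vcp and Creb3 were called under both regimens, so they are not among those called under NRF only. The median NRF amplitude of these 5 lists lay between 0.07 and 0.19, below the 0.27 of the 35 genes.

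Of 10 genes of the PERK and ATF4 arm, 8 were called under NRF, 3 under DRF and 4 under NRF only with an interaction, and 1 had a 12-h component under DRF, beside 30.8% of all genes. Chac1 (0.83 under NRF and 0.36 under DRF) and Atf4 (0.24 and 0.15) had the smallest interaction p, and Atf4 was called under both regimens. Of 16 cytosolic heat shock genes, 14 were called under NRF and none under DRF, 9 were called under NRF only with an interaction, and 14 had a 12-h component under DRF, with Hspe1 (0.38 and 0.11) and Hsp90aa1 (0.76 and 0.17) first. Their median amplitude was 0.54 for the 24-h cosine under NRF and 0.48 for the 12-h component under DRF, above the 0.27 and 0.21 of the 35 genes.

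The genes outside the 35 whose profile over the 14 group means was most like that of Sdf2l1, at a mean of at least 10 TPM, were Hsp90aa1, a cytosolic Hsp90 (Pearson r 0.978), Fkbp4, a co-chaperone of Hsp90 (0.975), Slc35b1, a nucleotide transporter of the ER membrane (0.975), P4ha1, a collagen prolyl hydroxylase (0.97), and Yars, a tyrosyl-tRNA synthetase (0.963). Within the 35, Hsp90b1 (0.978) and Dnajb11 (0.975) were nearest, and Dnajc10 was the most opposed (-0.79). These values describe 14 groups that share libraries and a light cycle.

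Markers of other tissues were compared with this pattern. Adipose markers, of which all 8 were measured and Adipoq was at 0 in 7 libraries, summed to a mean of 1120.1 TPM at NRF ZT16, where 2 libraries exceeded 500 TPM, and 1372 TPM at NRF ZT12, where 1 did and the range was 27.1 to 4757 TPM. Without the 8 libraries above 500 TPM 22 genes were called under NRF only with an interaction and 28 had a 12-h component under DRF. Of 13 pancreatic acinar markers, 4 were measured, and of these Cela1 averaged 104 TPM while Cpb1, Ctrb1 and Ctrl each averaged under 0.4 TPM. The 7 of 10 plasma and B cell markers measured summed to 9.34 to 36.3 TPM under NRF and 13.4 to 32.1 TPM under DRF, and the 6 of 9 adrenal markers to 9.26 to 20.8 and 8.98 to 19.0 TPM. The adrenal sum had means of 12.8 TPM at DRF ZT4, 10.3 at DRF ZT16 and 10.4 at NRF ZT16 beside 15.5 to 17.5 at the other DRF times. Its 2 tested genes, Star and Akr1b7, both had a 24-h rhythm under NRF and a 12-h component under DRF (adjusted p 0.0245 and 1.21e-05). Liver markers (9 of 9) summed to 317 to 1013 and 341 to 771 TPM, blood markers (3 of 6) to 93.4 to 687 and 179.6 to 605 TPM, and immune markers (8 of 8) to 709 to 2038 and 515 to 1386 TPM. In the same 2 regimens 10 of 12 kidney identity genes summed to 11475 to 16177 and 9715 to 14581 TPM, and the mean sum was highest at ZT16 under both, 14382 TPM under NRF and 13806 under DRF. Of these 10, 2 had a 24-h rhythm under NRF and 4 under DRF, against 52.5% and 36.8% of all genes tested. Aqp2 was 1 of the 4, with an amplitude of 0.82 ± 0.15 under DRF (adjusted p 0.000665) and 0.12 ± 0.14 under NRF. None of the 10 had a 12-h component under DRF, against 30.8%. The part of these tissues in the results was not tested beyond these values.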

How the data were processed

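Poly(A) RNA of mouse kidney had been sequenced as paired reads in 56 libraries. The submitters' processing notes name HISAT2, Bowtie2, RSEM, mm10 and GRCm38.p6, with no versions. The deposited values are a score made by the authors: within a library they followed a constant times log2(CPM + 1) divided by gene length, so they are not TPM, as the design had assumed. Reads were solved from this relation for 16719 of 17027 genes (98.2%). In the 14842 genes taken as whole reads, 99.85% of values above 0 lay within 0.1 read of a whole number, and 1866 genes held estimated counts in steps of 0.01. The other 308 genes were not used. Sec11c and Syvn1 needed a gene length found by search. Reads were turned into TPM over the recovered genes, and 13580 genes with a mean of at least 1 TPM were tested.

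Tests were two-sided and fitted to log2(TPM + 1) of all genes, using limma (3.58.1, under R 4.3.3) with its prior variance following mean level, with Benjamini-Hochberg adjustment over all genes tested and a threshold of 0.05. Fold changes on this scale understate those of low genes. Rhythms were 24-h cosines, with a 12-h pair of terms added, in the 28 libraries of a regimen. Regimens were compared by interaction terms and by contrasts of 1 fit of 14 groups, with ZT0 and ZT24 averaged. The procedure was tested on simulated data. The genes and lists were chosen with earlier results of these data known. Printed in full were Sdf2l1, the 6 others with the smallest 24-h interaction p, the 2 with the smallest 12-h interaction p, and Sdf2. Herpud1 was added after its values were seen. In other lists the 2 genes with the smallest interaction p were named. One NRF ZT24 column carries a replicate number that no label has and entered as a library of its group without a number. Replicate libraries differed beyond counting noise in all 84 pairs. Alternatives changed the scaling, unit, pseudocount, filter, test, replicates, block and ZT24 libraries.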

Additional observations from a re-analysis of the deposited data

Results flagged for a closer look

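Of 140 groups of 4 libraries examined for the genes printed in full, 16 had 1 library far from the other 3 by Dixon's test, and chance alone marks about 1 in 20 groups. For Sdf2l1 these were the highest libraries of NRF ZT12 (14.8 TPM) and NRF ZT24 (64.57 TPM). For Pdia6 it was the highest of NRF ZT8 (148.9 TPM), and for Calr the highest of DRF ZT8 (1161 TPM) and NRF ZT0 (1548 TPM). For Sec61b they were the lowest of NRF ZT0 (123.9 TPM), the highest of NRF ZT4 (136.5 TPM) and the lowest of NRF ZT16 (114.9 TPM), and for Dnajb11 the lowest of NRF ZT16 (156.8 TPM). For Creld2 they were the lowest of DRF ZT0 (38.53 TPM), the highest of DRF ZT16 (166.5 TPM), the lowest of NRF ZT4 (37.67 TPM) and the highest of NRF ZT8 (61.83 TPM). For P4hb it was the lowest of NRF ZT4 (939.8 TPM), and for Sdf2 the lowest of DRF ZT8 (103.3 TPM) and NRF ZT8 (86.49 TPM).

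The regimens differed by the test of the difference itself in the 24-h rhythm of 28 genes and in the 12-h component of 5 genes.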

How the results depend on the processing

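Of 198 counts recomputed under an alternative, 181 stayed within 1.5 times the reported count and 17 did not. The 3 genes with a 24-h rhythm under DRF became 7 with the 12-h terms kept in the fit, chosen after seeing the data, and 3 to 5 with a replicate left out. The 9 genes with a 12-h component under NRF became 0 to 7 with a replicate left out, 4 without the ZT24 libraries and 3 without the libraries high in adipose markers, also chosen after seeing the data. The 5 genes whose 12-h component differed became 10 with the median of ratios, 8 with effective library sizes, an added setting, and 1 to 4 with a replicate left out. The 3 genes whose mean differed became 1 with the median of ratios, with the deposited values and with effective library sizes, and 0 to 2 with a replicate left out. Between ZT24 and ZT0 1 gene was called with effective library sizes. The cause was not tested. Of 5629 values of single genes, 5212 kept their side of the threshold, 365 lost it, 52 gained it and 0 reversed. Of 27 pairs of same-numbered libraries, 13 correlated above 0.1, so the numbers were not taken as pairs. With the replicate block, 25 genes were called under NRF only with an interaction and 6 had a 12-h component under NRF, and no count moved by over 1.5 times. Samples 4 h apart limit the shape and timing of each maximum.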
